A study of Mus musculus with 2 samples.

Results

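The dentate gyrus of the hippocampus goes on making granule neurons after birth, and 30 genes that mark the steps of this process were examined in hippocampal RNA of 14-day-old mice. The genes form a fixed list of symbols, and all 30 were found among the 55536 annotated genes of the deposited tables, with 109 annotated transcripts. They fall into 12 genes of stem cells and of the signals that hold them (Hopx, Sox2, Hes1, Hes5, Fabp7, Lpar1, Notch1, Notch2, Jag1, Id1, Id3 and Id4), 5 genes of intermediate progenitors (Eomes, Neurog2, Insm1, Dll1 and Ccnd2) and 13 genes of immature neurons (Dcx, Sox11, Sox4, Igfbpl1, Draxin, Dpysl3, Dpysl5, Stmn1, Stmn2, Ncam1, St8sia2, St8sia4 and Cd24a). The samples were 1 group of 2 libraries of total RNA from female B6CASTF1/J mice, the hybrid of C57BL/6J and CAST/EiJ, obtained from The Jackson Laboratory and carrying no other allele or treatment in the labels. For each library 3 females are listed, and 300 ng of RNA and ERCC spike-ins (synthetic RNAs added as standards) were used. The labels do not say whether the 3 females were pooled as tissue or as RNA, and both libraries cite the same donor record. The tissue is labelled as a layer of the hippocampus without a statement of which, so how much dentate gyrus either library held is not known from the labels. There is no second condition: the data give the level of each gene, its isoforms and how far the libraries lay apart, without a p-value.

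In the dentate gyrus, stem cells with a radial process sit below the granule cell layer. Notch receptors on these cells are activated by ligands on their neighbours, induce the Hes repressors and keep proneural factors low, and bone morphogenetic proteins act alongside through the Id proteins, which bind and block factors of the helix-loop-helix class. Daughter cells pass through a dividing stage marked by Eomes and Neurog2, then become migrating neuroblasts that switch on Sox4, Sox11 and Dcx, remodel their microtubules through stathmins and collapsin response mediator proteins, and carry the neural cell adhesion molecule coated with polysialic acid. Most of these genes are used by other cells too: astrocytes express Sox2, Fabp7, Notch and Id genes, myelinating oligodendrocytes express Lpar1, and differentiated neurons keep Stmn2 and Ncam1. In RNA from whole tissue, fewer cells of a type and less RNA per cell cannot be told apart.

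Depth was 33465393 expected counts (estimated reads, which need not be whole) in replicate 1 and 32879872 in replicate 2, and the common biological coefficient of variation between the libraries was 0.104 over 17910 genes. Granule cells were represented in both libraries: the 7 listed granule cell markers, Prox1 and Calb1 among them, summed to 147 TPM (a read share corrected for transcript length) in replicate 1 and 175 TPM in replicate 2. Markers of tissue that borders the hippocampus were higher in replicate 1. The 8 choroid plexus markers summed to 1437 TPM there against 9.86 TPM in replicate 2, the 6 ependymal markers to 24.2 against 10.2 TPM, and the 7 markers of fibroblasts and meninges to 176 against 113 TPM, with 2 of these at least 1.5-fold lower in replicate 2. Astrocyte markers summed to 1882 and 2197 TPM, oligodendrocyte precursor markers to 248 and 226 TPM, myelin markers to 1830 and 1807 TPM and interneuron markers to 362 and 299 TPM. No marker of these lists was at 0 in either library. The part of any of these cell types in the results below was not tested.

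All 30 genes were detected, which here means a level of at least 1 TPM in both libraries. Levels are on the TPM scale, which divides by transcript length and so allows genes to be compared, and are given as replicate 1 and then replicate 2 or as mean ± SD (n = 2). The genes of immature neurons were the most abundant, with a median of 24.2 ± 3.41 TPM and medians of 21.7 and 26.6 TPM in the libraries. The stem cell and signalling genes had a median of 16.7 ± 1.71 TPM, and the genes of intermediate progenitors one of 3.37 ± 0.354 TPM. The median over 13168 protein-coding genes with a mean of at least 1 TPM was 14.4 TPM. The libraries' medians overlapped for no pair of stages: 15.5 and 18.0 TPM for stem cell genes, 3.12 and 3.62 TPM for intermediate progenitors and 21.7 and 26.6 TPM for immature neurons. Single genes ranged from Neurog2, at the 2.34th percentile of those protein-coding genes, to Stmn2, at the 99.5th. A mean of 10 TPM was reached by 20 genes, and 4 genes, all of the immature neuron stage, reached 100 TPM. The stages were listed with different kinds of genes, from transcription factors to cytoskeletal proteins, so the order of their medians does not rank numbers of cells.

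**Figure D1:**
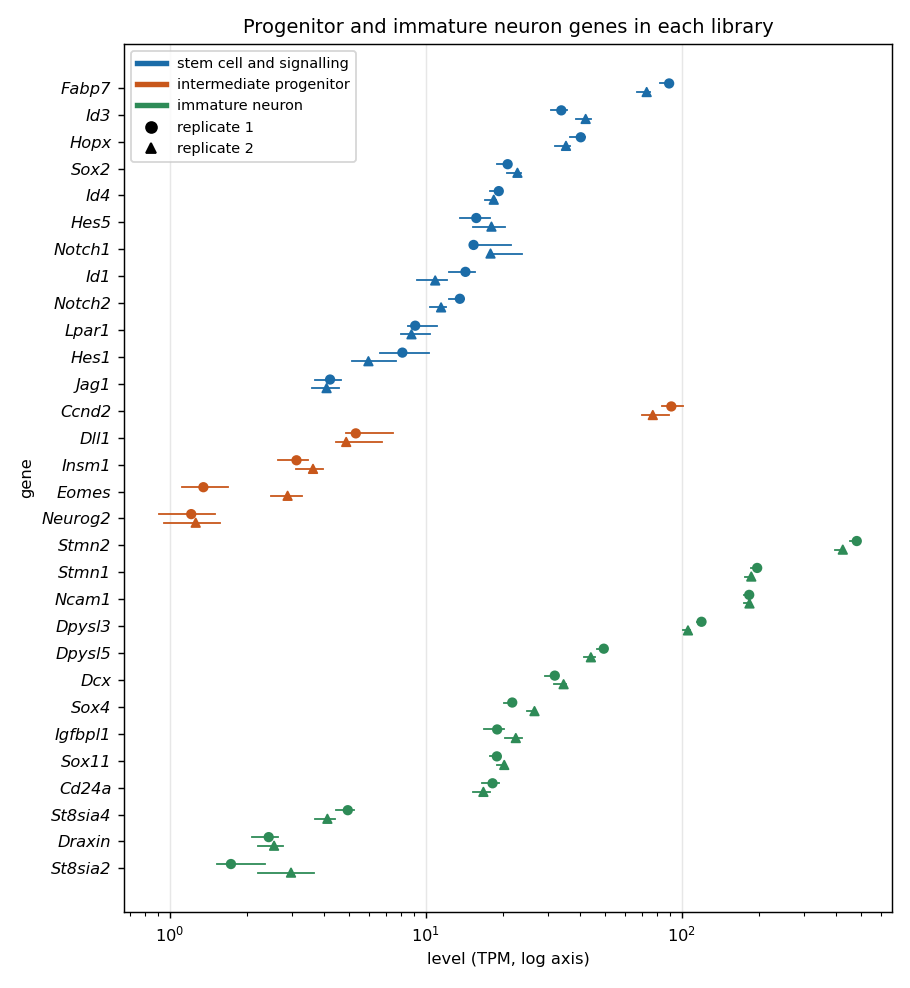
Level of each of the 30 genes in TPM (log axis) in replicate 1 (circles) and replicate 2 (triangles), with the deposited lower and upper bounds as lines, sorted by mean within each stage. Stmn2 lies highest and Neurog2 lowest, Ccnd2 stands far above the other 4 intermediate progenitor genes, and the lines of Eomes do not meet.

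Among the stem cell genes, the fatty acid carrier Fabp7 of radial glia was the most abundant at 89.2 and 72.9 TPM. Hopx, an atypical homeodomain protein that marks quiescent radial stem cells, had 40.3 and 35.3 TPM, and RNA from whole tissue does not show which cells carried it. Sox2, the transcription factor that maintains neural stem cells and is also present in astrocytes, had 20.9 and 22.8 TPM from a single exon. These 3 genes therefore spanned a range of levels, and the order Fabp7, Hopx, Sox2 was the same in both libraries. Lpar1, the receptor for lysophosphatidic acid found on hippocampal progenitors and on myelinating cells, was lower at 9.08 and 8.78 TPM. Its leading transcript Lpar1-201 took 51.0% and 59.9% of the gene's TPM, and the second, Lpar1-202, 34.8% and 15.1%. The second quantification, made from the reads without the alignments, gave Lpar1-202 only 12.2% and 0.0251%, so the division among the 8 annotated Lpar1 transcripts was not settled by these files.

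Both Notch receptors of the list were present at similar levels. Notch1 had 15.4 and 17.9 TPM and Notch2 13.6 and 11.5 TPM. The ratio of Notch1 to Notch2 was 1.13 in replicate 1 and 1.56 in replicate 2, a mean of 1.35 ± 0.303, so Notch1 was the higher in both libraries. Both ligands of the list were lower than these receptors: Dll1, the ligand carried by committed progenitors, had 5.32 and 4.88 TPM, and Jag1, made by stem cells and glia, had 4.22 and 4.09 TPM. The order of these ligands turned with the measure. Jag1 stood at 0.816 ± 0.0317 of Dll1 in TPM, but noncoding transcripts, mostly retained introns, made up 37.5% and 18.5% of the TPM of Dll1 against 10.8% and 15.6% for Jag1, and over protein-coding transcripts alone the ratio was 1.13 in replicate 1 and 0.869 in replicate 2. Reads on Dll1 can also belong to the long noncoding RNA A930024N18Rik on the opposite strand, whose exons cover 20.5% of the exonic bases of Dll1 and which had 0.77 and 0.94 TPM.

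The Notch target Hes5 (chr4:154960923-154962371, plus strand, mm10) was above Hes1 in both libraries. Hes5 had 15.7 and 18.0 TPM, and Hes1, a repressor that also responds to signals other than Notch, had 8.09 and 5.96 TPM. The ratio of Hes5 to Hes1 was 1.94 and 3.03, a mean of 2.48 ± 0.764. Reads on Hes5 can also belong to the gene Gm20421 on the opposite strand, whose exons cover 31.8% of the exonic bases of Hes5 and which had 0.53 and 0.84 TPM. The difference of Hes1 between the libraries lay in its short noncoding transcripts. They made up 42.1% of its TPM in replicate 1 and 12.2% in replicate 2, while the coding transcript Hes1-201 stood at 4.69 and 5.23 TPM and the whole gene had 179 and 169 expected counts. Hes5 moved the other way, its noncoding Hes5-202 taking 10.7% and 27.8% of TPM, with the coding Hes5-201 at 14.1 and 13.0 TPM. Among the promoters matched for genes of the list, the one of Hes5 is shown here because it alone held GTGGGAA, a core word bound by the Notch effector Rbpj, in either direction. The 250 bases before its start in RefSeq (GRCm38.p6, chr4:154960673-154960922, plus strand) are given with both copies in capitals, at positions -226 and -83 from that start.

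Hes5 promoter: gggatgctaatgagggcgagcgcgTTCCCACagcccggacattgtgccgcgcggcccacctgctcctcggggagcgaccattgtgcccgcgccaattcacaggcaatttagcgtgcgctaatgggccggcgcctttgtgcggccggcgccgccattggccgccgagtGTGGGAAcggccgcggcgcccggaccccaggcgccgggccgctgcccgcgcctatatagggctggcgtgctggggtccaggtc

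Promoters of 300 bases were matched for 20 of the 30 genes, 25 promoters in all, and those other than that of Hes5 did not hold these letters. Hes1 was among the genes without a matched promoter, so its promoter was not searched. The word was present on either strand in 6.38% of the 32851 promoters of the same table, and at least 2 copies in 0.256%. A match of letters is a description and does not show that the site is used.

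Of 25 others listed for the Notch pathway 24 were detected. The median was 9.69 TPM, taken over all 25 listed, as the medians of the wider lists below also were over all their genes. The ubiquitin ligase Mib1, which primes the ligands, was the most abundant at 72.6 ± 4.28 TPM, followed by the neuronal ligand-like protein Dner (69.2 ± 0.983 TPM) and the Notch antagonist Numbl (64.0 ± 0.587 TPM). The ligand Jag2, named after its values were seen, had 19.6 and 23.4 TPM, above Notch1 and Notch2, so not all Notch ligands lay below those receptors. Hes3 was the gene below detection, at 0.0500 and 0.130 TPM. None of the 24 detected genes differed by 1.5-fold or more between the libraries in scaled counts, and Hes3, with 1 and 5 counts, was too low to compare.

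Of the 3 Id genes on the list, Id3 was the highest at 33.8 and 42.1 TPM, Id4 had 19.3 and 18.4 TPM and Id1 14.3 and 10.9 TPM. This order held in both libraries. Id3 and Id1 went opposite ways, so their ratio was 2.37 in replicate 1 and 3.87 in replicate 2. The ratio of Id4 to Id1 was steadier, at 1.52 ± 0.243. Of 18 other genes of the bone morphogenetic protein pathway 17 were detected, with a median of 7.20 TPM, led by the fourth Id gene Id2 (49.5 ± 8.15 TPM), the receptor Bmpr2 (41.1 ± 0.354 TPM) and the mediator Smad4 (24.6 ± 0.537 TPM). The ligand Bmp2 was lowest, at 0.785 ± 0.163 TPM. The ligand Bmp6 was the gene of that list that lay at least 1.5-fold apart, at 4.55 TPM in replicate 1 and 2.67 TPM in replicate 2. Choroid plexus, ependymal and fibroblast markers were also lower in replicate 2, and their part in this difference was not tested.

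The wider set of stem cell genes was dominated by genes that astrocytes share. Of 20 genes 19 were detected, with a median of 9.08 TPM, led by the glutamate transporter Slc1a3 (215 ± 33.6 TPM), the intermediate filament Gfap (145 ± 12.2 TPM) and the neurotrophin receptor Ntrk2 (129 ± 3.39 TPM). The filament protein nestin (Nes), more confined to progenitors, was low at 4.78 and 3.59 TPM. Tfap2c was below detection at 0.425 ± 0.0636 TPM.

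The intermediate progenitor genes had low levels, apart from Ccnd2. Eomes, the T-box factor that defines these cells (chr9:118478212-118486132, plus strand), had 1.35 and 2.88 TPM. Neurog2, the helix-loop-helix factor that drives neuronal commitment, had 1.21 and 1.26 TPM, the lowest level of all 30. Insm1, a zinc finger factor of cells leaving the stem cell state, had 3.12 and 3.62 TPM. These transcription factors rested on few reads, 120 summed expected counts for Neurog2, 312 for Eomes and 461 for Insm1. Cyclin D2 (Ccnd2), which dividing progenitors use and some other cells also express, had 91.0 and 77.0 TPM. Its level was 6.68 ± 0.568 times that of cyclin D1 (Ccnd1, 12.9 and 12.3 TPM). No Ccnd2 transcript held a majority in either library: the full-length Ccnd2-201 with 289 residues took 44.2% and 39.9% of TPM, Ccnd2-204 with 156 residues 21.4% and 25.4%, and Ccnd2-206 25.9% and 19.0%. In expected counts, which favour long transcripts, Ccnd2-201 held 86.7% and 85.1%.

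Genes of cell division were low beside Ccnd2. Of 19 proliferation genes 17 were detected, with a median of 3.20 TPM, 12 of the 18 compared were lower in replicate 2 and none by 1.5-fold in scaled counts. Mki67, which marks cells in cycle, had 2.03 and 1.64 TPM, and Top2a, the topoisomerase of dividing cells, 4.25 and 2.83 TPM. The kinase Cdk4 (52.7 ± 1.14 TPM), the inhibitor Cdkn1b (24.5 ± 0.488 TPM) and the replication clamp Pcna (21.1 ± 1.80 TPM) led this list, and none of these is limited to dividing cells. Aurkb was lowest, at 0.845 ± 0.233 TPM.

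Among the immature neuron genes the microtubule regulators were the highest. Stmn2, the stathmin of growing neurites, had 483 and 426 TPM. Stmn1, the stathmin of progenitors and young neurons, had 197 and 187 TPM. Both destabilise microtubules, and Stmn2 exceeded Stmn1 by 2.36 ± 0.122 times. The size of that ratio depended on the quantification: 1.62 over protein-coding transcripts and 1.21 in the second quantification. For Stmn2, the processed transcript Stmn2-203 of 308 bases took 30.6% and 32.4% of TPM from 706 of 15843 expected counts in replicate 1, and it was at 0 in the second quantification. For Stmn1, 22.4% of its 31-base words also occur in other genes on the same strand, Gm11223 among them, so its reads are shared with copies.

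The list holds 2 collapsin response mediator proteins, which link guidance signals to the cytoskeleton. Dpysl3 had 119 and 106 TPM and Dpysl5 49.6 and 44.1 TPM. Their ratio was nearly the same in both libraries, at 2.40 ± 0.00961. The long form of Dpysl3, Dpysl3-204 with 683 residues, took 71.8% and 72.5% of TPM and the short form Dpysl3-201 with 570 residues 27.8% and 27.2%. The second quantification gave the long form 67.8% and 70.7%, so the long form led in every estimate.

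Doublecortin (Dcx, chrX:143855842-143933311, minus strand), the microtubule-binding protein by which neuroblasts are recognised, had 31.9 and 34.5 TPM from 4076 and 4555 expected counts. Its long transcript Dcx-201, with 9074 bases and 366 residues, took 53.8% and 56.4% of TPM. Dcx-204, with 1333 bases and 360 residues, took 34.4% and 30.97%, on 309 and 300 expected counts. The second quantification gave 61.4% and 62.2% to Dcx-201. The order of these 2 transcripts was thus the same in both libraries and both quantifications.

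The SoxC factors, which drive the neuronal program downstream of the proneural genes, are both encoded by a single exon. Sox4 had 21.7 and 26.6 TPM and Sox11 18.9 and 20.2 TPM. Sox4 led by 1.23 ± 0.116 times per length, whereas in expected counts it had 0.704 times the reads of Sox11, whose transcript is longer. Exons of the noncoding gene Gm26735 on the opposite strand cover 54.6% of the exonic bases of Sox4, with 0.12 and 0.17 TPM. Without the use of strand being stated, reads of that pair cannot be told apart. Igfbpl1, an insulin-like growth factor binding protein relative of young neurons, had 19.0 and 22.5 TPM. Cd24a, a surface glycoprotein of neuroblasts that ependymal cells also carry, had 18.2 and 16.8 TPM. Draxin, a secreted repulsive guidance protein, was much lower at 2.43 and 2.55 TPM.

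Ncam1 (chr9:49502136-49798925, minus strand), the adhesion molecule that carries polysialic acid on young neurons, had 183 and 184 TPM and was the third highest gene of the list. Its enzymes were low. St8sia4, one of the polysialyltransferases, had 4.95 and 4.12 TPM, and St8sia2, the other and the one typical of developing brain, 1.73 and 2.97 TPM. St8sia4 exceeded St8sia2 by 2.86 times in replicate 1 and 1.39 times in replicate 2. Part of that gap came from 1 transcript: St8sia2-202, with 816 bases, was at 0 in replicate 1 and took 27.9% of TPM from 13.5 expected counts in replicate 2, and the main transcript St8sia2-201 had 1.73 and 2.14 TPM.

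Ncam1 was divided among all 3 classical protein forms, and sequences in which the 4 transcripts below differ are shown. Not all of these separate the 3 forms: the 3 extra bases of Ncam1-202 divide transcripts that share the shorter tail. Whether the 30-base, 15-base and 3-base exons go with the long tail in these libraries was not tested. The form held by a lipid anchor, Ncam1-201 with 725 residues, took 26.6% and 28.1% of TPM. The transmembrane forms with the shorter tail, Ncam1-202 with 849 residues and Ncam1-204 with 848, took 13.9% and 14.1%, and 36.5% and 37.2%. The form with the long tail, Ncam1-205 with 1088 annotated residues, took 19.1% and 18.8%. The 4 shares thus lay close in the libraries. The second quantification gave 22.3% and 23.3%, 16.6% and 16.7%, 33.9% and 33.5%, and 23.7% and 24.4% in the same order, so the ranking was altered only in that Ncam1-205 passed Ncam1-201. Ncam1-205 differs by an exon of 801 bases (chr9:49506853-49507653), whose first 45 bases are in capitals, by an exon of 30 bases (chr9:49550540-49550569) and by neighbouring exons of 15 bases (chr9:49541888-49541902) and 3 bases, all in capitals beside 15 bases of the neighbouring transcript. The annotated model of Ncam1-205 is also incomplete at its 5′ end, where it lacks the first 2 exons of Ncam1-204, so its residue count is that of a partial protein. Ncam1-202 and Ncam1-204 differ by 3 bases at the start of 1 exon, in capitals for Ncam1-202, and in the length of the transcript, 3088 against 6050 bases. Ncam1-201 ends its reading frame in an exon of its own, whose coding bases are in capitals. All are written 5′ to 3′ on the transcript, from the GENCODE M21 transcripts on mm10.

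Ncam1-205 30-base exon: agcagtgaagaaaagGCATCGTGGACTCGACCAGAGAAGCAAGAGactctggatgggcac
Ncam1-205 15-base and 3-base exons: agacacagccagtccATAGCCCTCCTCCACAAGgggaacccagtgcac
Ncam1-205 long exon: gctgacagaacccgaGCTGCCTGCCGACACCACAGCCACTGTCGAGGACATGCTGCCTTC
Ncam1-202 junction: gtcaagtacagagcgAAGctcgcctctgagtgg
Ncam1-204 junction: gtcaagtacagagcgctcgcctctgagtgg
Ncam1-201 last coding stretch: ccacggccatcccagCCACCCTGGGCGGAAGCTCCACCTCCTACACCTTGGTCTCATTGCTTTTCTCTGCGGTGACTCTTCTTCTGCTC

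**Figure D2:**
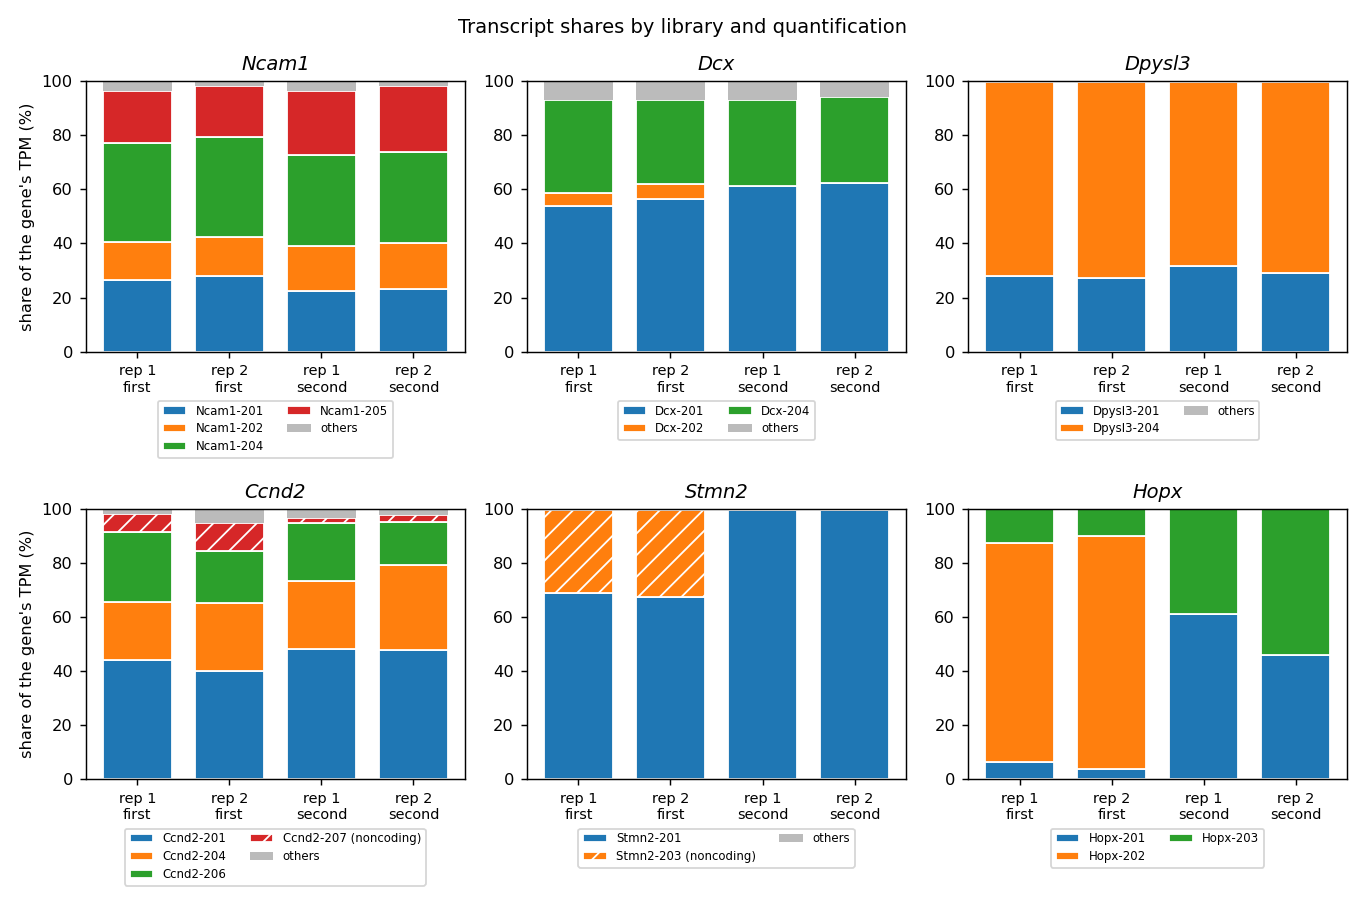
Share of each gene's TPM (percent, stacked to 100) taken by its annotated transcripts, for Ncam1, Dcx, Dpysl3, Ccnd2, Stmn2 and Hopx, in both libraries (rep 1, rep 2) and both quantifications (first, second); hatched bars are noncoding transcripts and transcripts under 5% are grouped as others. Ncam1, Dcx and Dpysl3 look alike in all 4 bars, while the noncoding Stmn2-203 is present only in the first quantification and the leading Hopx transcript changes between quantifications.

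Across the list, 7 genes had a single annotated transcript, and 22 of the other 23 had the same leading transcript in both quantifications. The exception was Hopx (chr5:77086988-77115121, minus strand), for which Hopx-202 took 80.9% and 86.0% of TPM in the first quantification and 0 in the second, where Hopx-201 had 61.1% and 46.0% and Hopx-203 38.9% and 54.0%. All 3 are annotated with a protein of 73 residues. Exons of the antisense gene Hopxos, at 0.14 and 0.17 TPM, cover 27.2% of the exonic bases of Hopx. The leading transcript held at least 50% of TPM in both libraries for 28 of the 30 genes, the exceptions being Ccnd2 and Ncam1. Noncoding transcripts reached 10% of TPM in both libraries for 9 genes in the first quantification and for 4 in the second.

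The other genes listed for neuroblasts and immature neurons had a higher median than the immature neuron genes above. This wider list is not limited to immature cells, since Prox1 is also among the granule cell markers, so its median does not measure how many immature neurons were present. Of 31 genes 28 were detected, with a median of 50.4 TPM, led by thymosin beta 10 (Tmsb10, 337 ± 7.50 TPM), the tubulin Tubb2b (333 ± 13.5 TPM) and Stmn3 (325 ± 27.1 TPM). Neurod1, which follows Eomes in the granule lineage, had 24.3 and 24.7 TPM. Calb2, the calcium-binding protein of young granule cells and of some interneurons, had 41.3 and 35.6 TPM, and the granule cell factor Prox1 45.2 and 55.6 TPM. Nhlh1, under detection, had 0.370 and 0.630 TPM, a ratio of 1.80 from few counts, with an interval from 1.02 to 3.34. Neurog1 was at 0 counts in replicate 2, where the 3 counts that a count of 0 allows are its limit, and at 2 counts in replicate 1.

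The libraries were then set against each other, with expected counts scaled by TMM, a normalization on the bulk of genes, and an exact 95% binomial interval that covers counting error only. The median log2 ratio of replicate 2 to replicate 1 was 0.04 over the 30 genes, against -0.00030 over the 14715 genes compared, whose central 95% ran from -0.62 to 0.48. By this measure 18 of the 30 genes were higher in replicate 2 and 12 lower, and 22 lay within 1.2-fold of equality, as did 79.0% of all genes compared. The split into higher and lower depended on the scaling, with 14 genes higher in the deposited TPM, 15 with spike-in totals and 21 with TMM on unfiltered counts. The median log2 ratio was 0.01 for the stem cell and signalling genes, 0.15 for the intermediate progenitor genes and 0.11 for the immature neuron genes. No gene was at least 1.5-fold lower in replicate 2, a call made for 2.88% of all genes compared. The largest decrease was that of Id1, with a log2 ratio of -0.33.

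Eomes was the only one of the 30 at least 1.5-fold higher in replicate 2, a call made for 1.36% of all genes compared. It had 99 expected counts in replicate 1 and 213 in replicate 2, a ratio of 2.30 with a counting interval from 1.81 to 2.96. Among the 3513 genes with 156 to 624 summed counts, within 2-fold of the summed count of Eomes, the same call was made for 2.19%, a comparison chosen after the value of Eomes was seen. The deposited bounds of its TPM were 1.11 to 1.68 in replicate 1 and 2.48 to 3.28 in replicate 2, and the second quantification gave 2.03 and 4.06 TPM. The leading transcript Eomes-201 took 77.9% and 78.8% of TPM. The minor Eomes-202 took 12.8% and 16.3%, and Eomes-203 9.26% and 4.95%, the last from 4.44 and 5.01 expected counts. The genes listed beside Eomes did not move as far: the ratio was 1.11 for Neurog2, with an interval from 0.762 to 1.61, and 1.24 for Insm1, with an interval from 1.03 to 1.49. Dll1 had a ratio of 1.08, with an interval from 0.912 to 1.27. Ccnd2 went the other way, at 0.829, with an interval from 0.799 to 0.860. In the direction of Eomes, all 7 granule cell markers were higher in replicate 2, by 0.38 on the log2 scale at the median, and 2 of them, Tdo2 and Dsp, by at least 1.5-fold. Higher values in replicate 2 were not limited to granule cell markers: 7 of 8 astrocyte markers were higher, by 0.29 at the median, as were all 7 myelin markers, by 0.09, and all 5 endothelial markers, by 0.14. Of the myelin markers, 1 was at least 1.5-fold higher. Cajal-Retzius cells, another hippocampal cell type that can carry Eomes, had 6 markers that summed to 56.7 and 50.8 TPM. Reln, at 37.9 and 33.7 TPM, and Ndnf, at 15.4 and 13.5 TPM, carried that sum. The low factors Trp73 (1.74 and 2.04 TPM), Ebf3 (0.800 and 1.07 TPM) and Lhx5 (0.140 and 0.200 TPM) had higher values in replicate 2, each with a counting interval that included 1. Lhx1, the remaining marker of the 6 and also low, had a lower value in replicate 2. With 1 library on each side, a difference between libraries cannot be told apart from a difference between dissections or animals.

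**Figure D3:**
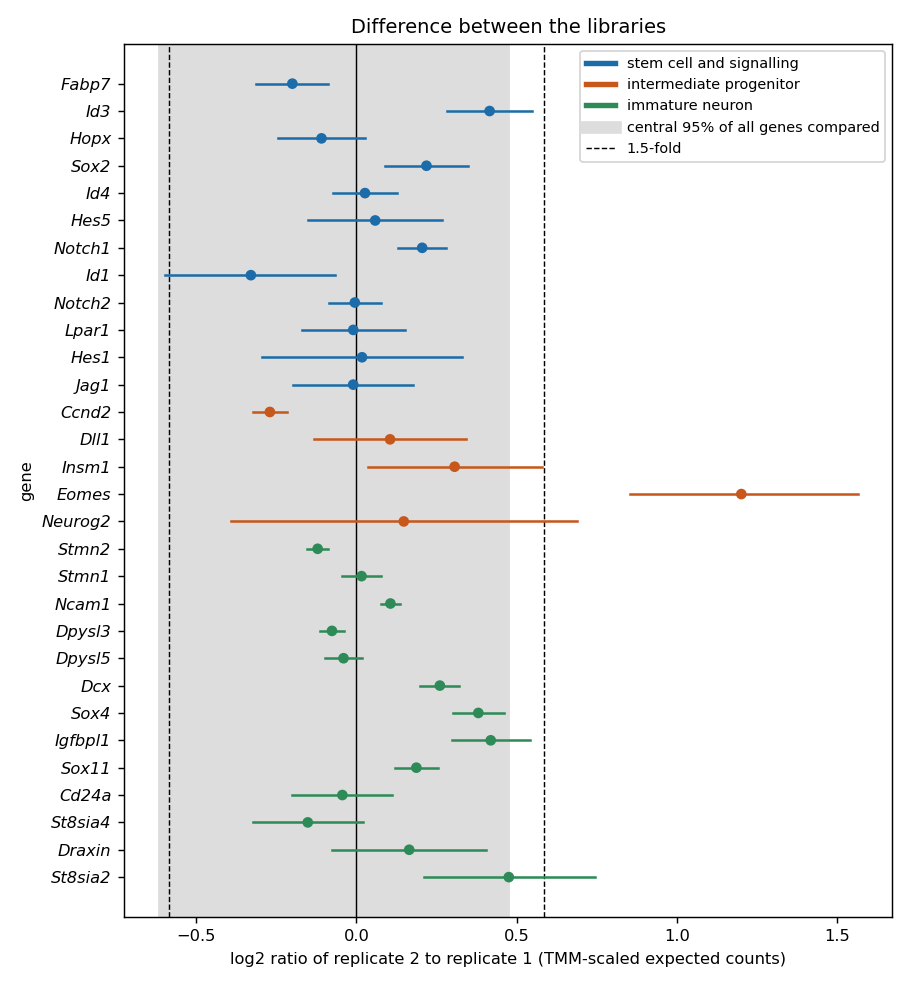
Log2 ratio of replicate 2 to replicate 1 for each gene, from TMM-scaled expected counts, with exact 95% counting intervals as lines, the central 95% of the 14715 genes compared as a grey band and 1.5-fold as dashed lines. Eomes alone lies beyond 1.5-fold, at 1.20, and the other points lie inside the grey band.

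The other genes with the greatest increases were St8sia2, Igfbpl1, Id3 and Sox4. St8sia2 had a ratio of 1.39, with an interval from 1.16 to 1.68, Igfbpl1 one of 1.34 (1.23 to 1.46), Id3 one of 1.33 (1.22 to 1.46) and Sox4 one of 1.30 (1.23 to 1.38). Dcx was 1.20 times higher in replicate 2, with an interval from 1.15 to 1.25. The greatest decreases after Id1 were those of Ccnd2, at 0.829 (0.799 to 0.860), and Fabp7, at 0.870 (0.805 to 0.941). The counting interval left out 1 for 16 of the 30 genes, 11 higher and 5 lower, and for 38.1% of all genes compared. The deposited bounds did not overlap for 13 genes, and for 16.2% of all genes compared. Both measures narrow with depth and leave out the spread between animals, and the 30 genes had from 120 to 38123 summed counts, so nothing is read from these shares. For 2 genes, Notch1 and Ncam1, a deposited TPM lay outside its own bounds.

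The second quantification gave higher levels for all 30 genes, as it did for most genes. The median log2 difference was 0.55 over the 30 genes and 0.62 over 15452 genes with a mean of at least 1 TPM. Stmn1 and Cd24a were over 2-fold higher in it in both libraries, a call made for 8.58% of those genes. Stmn1 had 420 and 399 TPM there, and its transcript Stmn1-203, at 0.540% and 0.810% in the first quantification, took 27.2% and 26.9%. Cd24a had 39.9 and 37.2 TPM, and its transcript Cd24a-202, at 0 in the first quantification, took 32.2% and 27.2%. Both genes share words with other genes on the same strand, 4.98% of them in the case of Cd24a. Notch2 shares 4.28% in the same way and had a log2 difference of 0.35. The part of shared words in these differences was not tested. Hes5, Stmn2 and Hes1 moved least, with log2 differences of 0.24, 0.13 and 0.33.

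**Figure D4:**
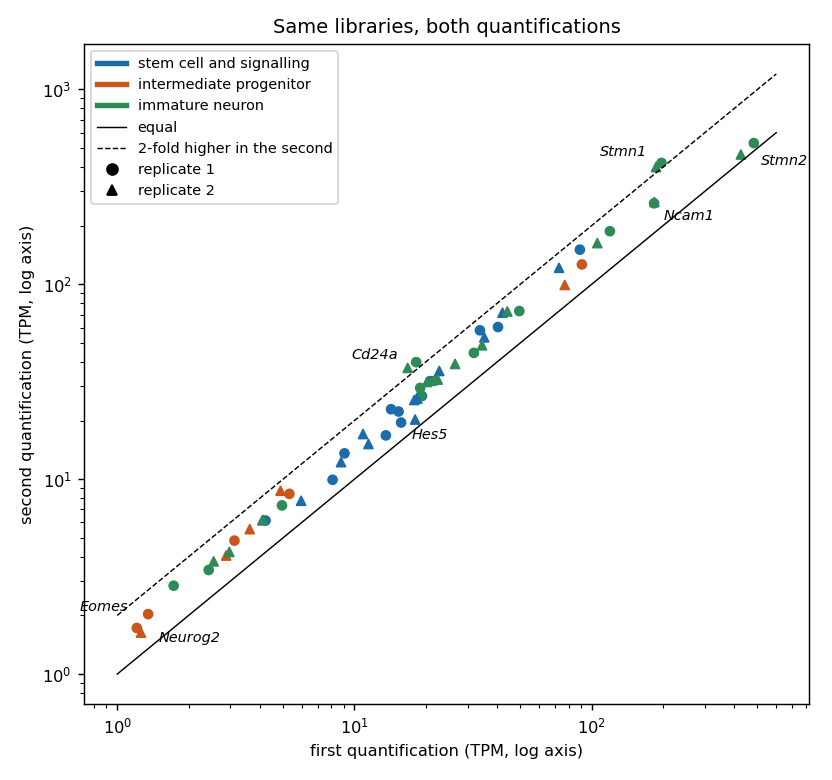
Level of each gene in the first quantification (horizontal) against the second (vertical), both in TPM on log axes, in replicate 1 (circles) and replicate 2 (triangles); the solid line marks equal values and the dashed line a 2-fold higher value in the second. All points lie above the solid line, Stmn1 and Cd24a lie above the dashed line and Stmn2 lies closest to the solid line.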

How the data were processed

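Total RNA was sequenced by the authors from 2 libraries. In the first quantification, tables laid out as RSEM writes them, the deposited expected counts and TPM stand, per the file headers, beside lower and upper TPM bounds of unstated level and each transcript's percent of its gene's TPM. The second quantification, in the layout of kallisto tables, holds estimated counts and TPM per transcript as deposited, here summed per gene. Both used mm10 and GENCODE M21 per the accompanying notes. The aligner, versions and use of strand: not given in the sources used here. TPM includes the spike-ins, and reads of CAST/EiJ alleles differ more from mm10.

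Gene symbols were joined by gene identifier. Entries outside annotated genes (0.430% and 0.423% of expected counts) stayed out of scaling. Library ratios used TMM factors from edgeR 4.0.16 (R 4.3.3) on rounded expected counts of genes reaching 10 counts in both libraries, a prior count of 0.5 and genes with a mean of 1 TPM and 50 summed counts, and were tested on simulated data. Quantifications were compared as log2(TPM + 0.1). Intervals cover counting error at 95%. Word sharing used 31-base words of the annotated transcripts. Alternatives were DESeq2 1.42.0 size factors, spike-in totals, upper quartile, other pseudocounts, prior counts and filters, protein-coding transcripts only and each library alone. Named genes of the wider lists were the 3 highest, the lowest, those 1.5-fold apart with an interval that left out 1, and a fixed set of markers. The genes and lists were chosen with earlier results of these data known. Python 3.11.15 with pandas 2.3.3, numpy 2.4.6, scipy 1.17.1 and matplotlib 3.10.9 was used.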

Additional observations from a re-analysis of the deposited data

How the results depend on the processing

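Of 53 alternative values other than ratios between genes, 41 stayed within the spread or within 1.5 times the reported count. In the second quantification the median TPM was 21.9 for stem cell and signalling genes, 5.19 for intermediate progenitor genes and 38.6 for immature neuron genes, and in a repeat added after the data were seen 13.8, 12.3, 15.8, 78.7 and 5.19 for the other Notch, bone morphogenetic protein, stem cell, immature neuron and proliferation genes. TPM rescaled over nuclear protein-coding genes gave stage medians of 38.2, 7.68 and 55.1. Without replicate 1 or replicate 2 the medians ran from 15.5 to 18.0, from 3.12 to 3.62 and from 21.7 to 26.6. The order of stages was kept in each of these settings. At a minimum of 5 TPM, 22 of the 30 genes were detected. On log2(TPM + 0.1), St8sia2 joined Eomes, so 2 genes were at least 1.5-fold higher in replicate 2. The ratio of Eomes ran from 2.06 to 2.32 over the scalings, prior counts and quantifications tried. The median log2 ratio of all genes compared ran from -0.09 to 0.00204 over filtered TMM, DESeq2 size factors, spike-in totals, upper quartile and deposited TPM. It was not computed for unfiltered counts, the second quantification or the other prior count. Of 50 alternative ratios between genes of a pair 47 kept their order, and 3 reversed: Sox4 to Sox11 was 0.704 in expected counts, and Jag1 to Dll1 was 1.59 in expected counts and 1.001 over protein-coding transcripts. Expected counts are not divided by length, which by construction favours the longer transcripts of Sox11 and Jag1. Library ratios cannot be formed without either replicate. No paired analysis was possible because there is 1 group.

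Transcript shares of the low genes rest on few reads, and a level of 3 counts corresponded to 0.0411 and 0.0405 TPM for Eomes. No source used here gives the level of the deposited bounds or the use of strand, and 1 group of 2 libraries gives no test of a difference.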
